A study of Mus musculus with 24 samples.

Results

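The transcripts described here encode 9 cytokine chains of the IL-6, IL-10 and IL-12 families: Il6, Lif, Osm, Il10, Il12a, Il12b, Il23a, Il27 and Ebi3. They were chosen by symbol from a table of 54838 genes, with symbols matched through mouse GENCODE names. The list follows family membership and uses no threshold on a value, but it was drawn up with earlier results of these data known. Of these 9 genes 8 had a count in some library, and the same 8 passed the low-count filter (13116 genes in all). Il12a had 0 counts in all 24 libraries. Il6, Il10, Il12b and Il27 were at or near the count floor in most groups and high in LPS. The filter kept Il10, Il12b and Il27 largely through the LPS libraries, while Il6 also passed it with only (GT)6 SWCNT and control fitted.

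The data are poly-A RNA-seq of SIM-A9 cells, a line of mouse microglia, made to set the inflammatory response to probes used in neuroscience beside that to LPS. All groups were the same line, kept in serum-free medium for 2 h and then exposed for 2 h, with 3 libraries each. The control wells were untreated, and LPS (lipopolysaccharide, the bacterial ligand of TLR4) was the positive control. All libraries, control included, are listed with 270 µL of medium and 30 µL added. The 6 probes were (GT)6 SWCNT (single-walled carbon nanotubes carrying a short GT-repeat DNA), COOH SWCNT (carboxylated nanotubes), AAV (adeno-associated virus), the calcium dye Fura-2, and Di-2-ANEPEQ and DiBASC2, which are voltage dyes. Libraries were grouped by their titles. The treatment labels of the DiBASC2 libraries end in a different number in each library, the count columns spell that dye DiSBAC2, and Di-2-ANEPEQ, also spelled Di2ANEQPEQ and Di-2-ANEQEQ in the labels, is written, with hyphens added, as the column names spell it. The labels give no doses. Nothing in them says that the 3 libraries of a group came from separate cultures, so p-values measure only the spread between these libraries, which may be technical.

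IL-6, LIF and oncostatin M signal through receptor complexes that contain gp130 (Il6st), activate JAK kinases and STAT3, and are damped by SOCS3. The IL-12 family is built from paired chains: p40 (Il12b) joins p35 (Il12a) in IL-12 or p19 (Il23a) in IL-23, and EBI3 joins p28 (Il27) in IL-27 or p35 in IL-35. IL-10 signals through IL10RA and IL10RB to STAT3 and restrains macrophage and microglial cytokine output.

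Library totals ranged from 17364272 to 29259221 counts. A level is given in CPM, the count relative to the TMM-adjusted size of its library, and the floor of 3 counts corresponded to 0.102 to 0.176 CPM. All 12 microglia and macrophage markers averaged above 1 CPM, and their summed level was 2500 to 2760 CPM over the libraries. Markers of T and NK cells summed to 0.0361 to 0.568 CPM, with Cd8a and Ncr1 at 0, and lists for B cells, astrocytes, neurons and fibroblasts stayed under 1 CPM in every library. The dendritic cell list (Flt3, Zbtb46, Xcr1), with 1 of 3 genes averaging above 1 CPM, summed to 2.53 to 3.84 CPM in control and, without overlap, 4.62 to 4.86 with LPS, and to 3.63 to 4.93 with (GT)6 SWCNT and 3.57 to 4.67 with COOH SWCNT. The endothelial list (Pecam1, Cdh5, Kdr), with 1 of 3 genes averaging above 1 CPM, summed to 128 to 138 CPM in control, 124 to 137 with COOH SWCNT, 102 to 109 with (GT)6 SWCNT and 90.8 to 102 with LPS, and the part of these lists in the results was not tested.

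RefSeq promoter sequences on GRCm38.p6 were held for 5 of the 9 members. The 250 bases before the RefSeq start are shown for Il6 and Ebi3, and 239 bases for Lif, whose window was cut at the GENCODE gene start. They were chosen since these 3 genes rose with LPS by very different amounts and their windows hold different motif matches. Because both entered the choice, the windows cannot show a link between matches and rise, which was not tested. Capitals mark matches, on either strand, to the NF-kB consensus, to the AP-1 motif TGANTCA or to the C/EBP motif TTGCNNAA.
Il6, chr5:30012864-30013113, plus strand: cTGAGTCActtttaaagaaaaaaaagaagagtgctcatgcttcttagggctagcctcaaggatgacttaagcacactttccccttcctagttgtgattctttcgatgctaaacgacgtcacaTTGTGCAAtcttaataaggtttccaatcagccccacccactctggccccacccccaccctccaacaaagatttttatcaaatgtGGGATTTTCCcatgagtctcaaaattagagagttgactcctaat
Lif, chr11:4257318-4257556, plus strand: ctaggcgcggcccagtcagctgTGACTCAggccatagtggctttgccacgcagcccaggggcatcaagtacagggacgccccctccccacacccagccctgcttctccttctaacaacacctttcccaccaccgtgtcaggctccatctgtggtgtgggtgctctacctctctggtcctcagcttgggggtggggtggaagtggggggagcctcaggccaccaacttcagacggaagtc
Ebi3, chr17:55952373-55952622, plus strand: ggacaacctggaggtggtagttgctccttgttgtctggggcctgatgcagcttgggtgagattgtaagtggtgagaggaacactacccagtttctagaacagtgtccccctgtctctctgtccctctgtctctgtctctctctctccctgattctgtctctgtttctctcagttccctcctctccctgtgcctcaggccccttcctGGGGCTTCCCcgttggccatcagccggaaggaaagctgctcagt
In the Il6 window an AP-1 match lies 249 to 243 bases before the start, a C/EBP match 128 to 121 and an NF-kB match 44 to 35. The Ebi3 window has an NF-kB match at the same distance, 44 to 35 bases before its start. The Lif window has an AP-1 match 217 to 211 bases before the GENCODE start of Lif. No match to these motifs or to the CRE motif TGACGTCA was found in the windows of Il12b and Il12a. Among 32851 RefSeq promoter windows of 250 bases, 3.9% hold the NF-kB motif, 6.75% the AP-1 motif, 9.56% the C/EBP motif and 1.55% the CRE motif. The motifs were searched separately, and no 2 of the marked matches overlap.

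Calls use an adjusted p under 0.05 from edgeR's quasi-likelihood test with Benjamini-Hochberg adjustment, used throughout. After 2 h of LPS, Il6, Lif, Osm, Il10, Il12b, Il23a, Il27 and Ebi3 were each called higher than in untreated cells. Over all 13116 genes tested in that comparison 28.3% were called, and 13.8% of the genes tested were called higher (1809 higher and 1908 lower, or 1455 and 2660 with upper-quartile scaling). (GT)6 SWCNT raised 4 members, Osm, Lif, Il6 and Ebi3, where 20.4% of all genes were called and 9.90% were called higher. COOH SWCNT raised Osm and Lif, where 20.0% were called and 9.39% were called higher. DiBASC2 lowered Osm and called no other member, where 5.47% of all genes were called and 3.64% were called lower (239 higher and 478 lower, or 361 and 296 with upper-quartile scaling). The median log2 fold change, with bounds or count ratios in place of fitted values at the floor, was 2.92 over 8 members with LPS, 1.42 over 6 members with (GT)6 SWCNT and 0.63 over 7 members with COOH SWCNT, against -0.01, -0.02 and -0.00 over all genes tested. Il10, Il12b and Il27 passed the filter largely through their LPS counts, so the LPS count of 8 and the LPS median were favoured in advance. In bulk RNA, fewer cells with a transcript and less of it per cell cannot be told apart.

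**Figure D1:**
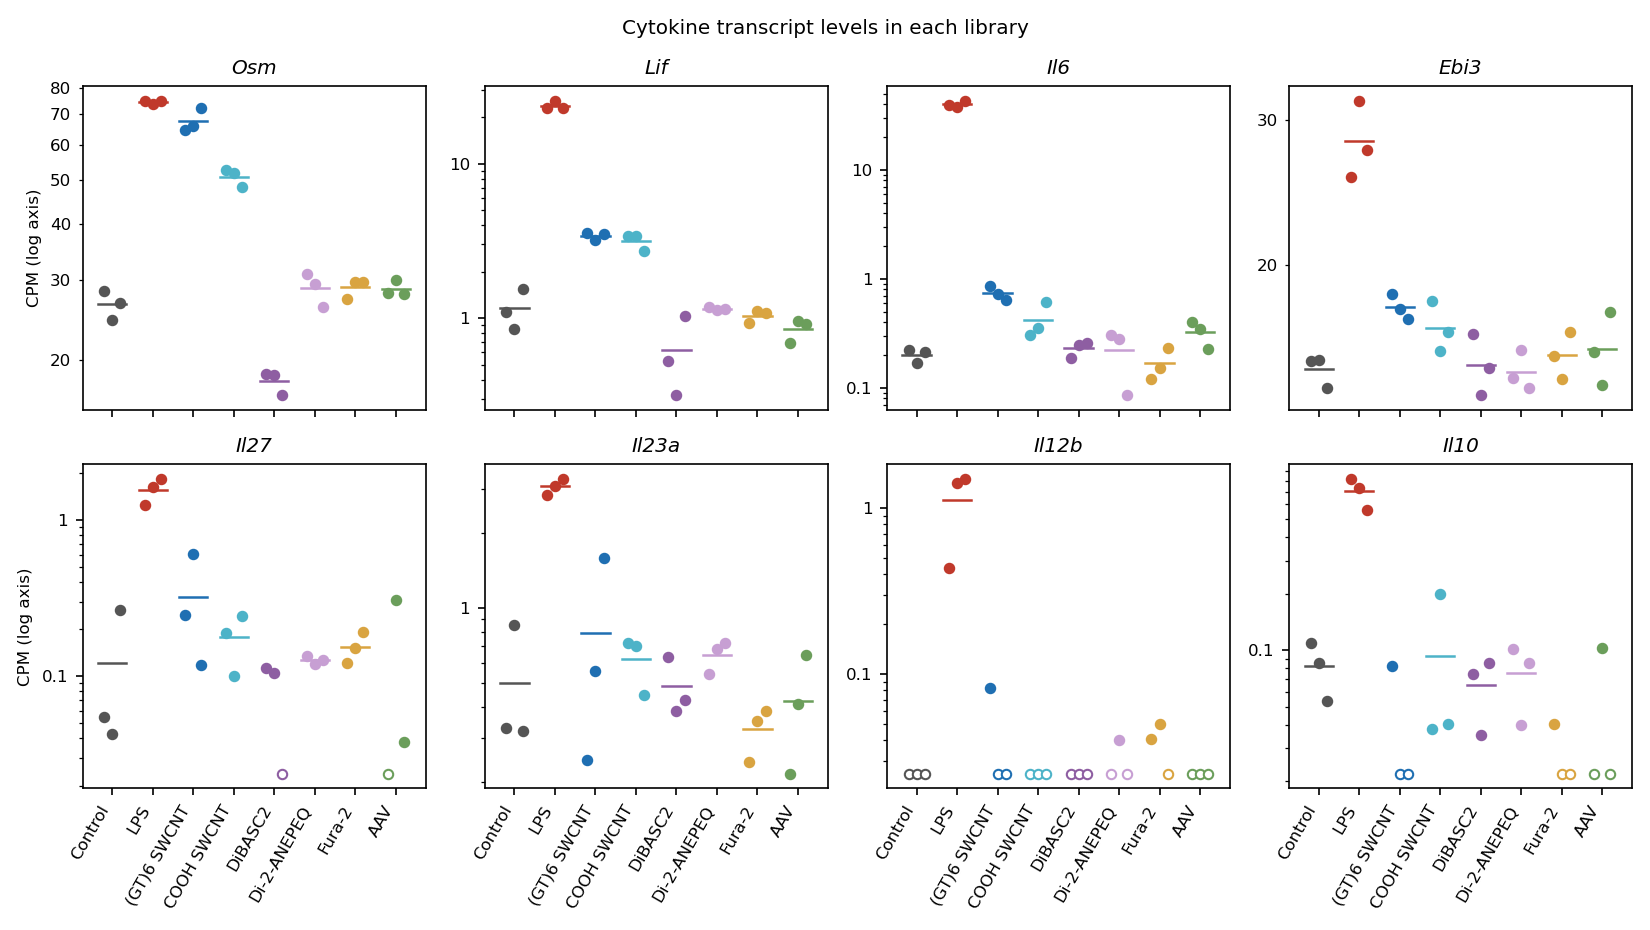
Level of each of the 8 cytokine transcripts with counts, in CPM on a log axis, by treatment group. Each filled point is 1 library, lines are means of 3 libraries where no library was at 0, and open circles at the bottom are libraries with 0 counts. The LPS libraries are the highest of every panel, the nanotube libraries follow for Osm and Lif, and DiBASC2 is lowest for Osm.

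Osm (GRCm38 chr11:4236420-4241026, plus strand, ENSMUSG00000058755.3) encodes oncostatin M, a gp130 cytokine made by myeloid cells. It stood at 28.4, 24.5 and 26.8 CPM in the control libraries. LPS libraries had 75.0, 73.7 and 75.0 CPM, (GT)6 SWCNT libraries 64.5, 66.1 and 72.4, and COOH SWCNT libraries 52.6, 52.0 and 48.2. The 4 groups did not overlap, so Osm was highest in LPS, then (GT)6 SWCNT, then COOH SWCNT, then control. Against control the log2 fold change was 1.50 ± 0.06 (SE, n = 3 libraries per group) with LPS (adjusted p = 1.9e-21), 1.35 ± 0.06 with (GT)6 SWCNT (adjusted p = 2.06e-19) and 0.94 ± 0.06 with COOH SWCNT (adjusted p = 3.69e-14).

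Osm was also the member that fell. In DiBASC2 it stood at 18.6, 18.5 and 16.7 CPM, below every other library of the series. Its log2 fold change against control was -0.56 ± 0.07 (n = 3 per group, adjusted p = 8.49e-07), and it kept that call in all 13 alternative fits. Fura-2 (27.3 to 29.8 CPM), Di-2-ANEPEQ (26.2 to 31.02) and AAV (28.01 to 30.0) overlapped the control range. Their log2 fold changes of 0.13, 0.13 and 0.12 were not called, with 95% intervals of -0.01 to 0.27, -0.00 to 0.27 and -0.01 to 0.25.

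Lif (chr11:4257557-4272514, plus strand, ENSMUSG00000034394.14) encodes leukaemia inhibitory factor, another gp130 cytokine. It lies next to Osm on the same strand, with 16.5 kb between the end of Osm and the start of Lif. Control libraries had 1.10, 0.851 and 1.55 CPM of Lif. LPS libraries had 22.8, 25.5 and 22.8 CPM, while (GT)6 SWCNT libraries had 3.57, 3.18 and 3.52 and COOH SWCNT libraries 3.38, 3.41 and 2.72. Both nanotube groups lay above every control library and overlapped each other, far below LPS. The log2 fold change against control was 4.37 ± 0.17 with LPS (n = 3 per group, adjusted p = 1.24e-22), 1.57 ± 0.22 with (GT)6 SWCNT (adjusted p = 4.04e-07) and 1.46 ± 0.22 with COOH SWCNT (adjusted p = 3.08e-06).

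In DiBASC2 the Lif level was 0.525, 0.317 and 1.03 CPM, the group with the lowest mean, and the third library lay within the control range. The log2 fold change of -0.92 ± 0.29 against control had a 95% interval of -1.52 to -0.33 and was not called (n = 3 per group, adjusted p = 0.0581). Without the third DiBASC2 library the adjusted p was 0.00562, and without the second control library it was 0.0345. Fura-2 (0.927 to 1.11 CPM), Di-2-ANEPEQ (1.12 to 1.19) and AAV (0.686 to 0.960) overlapped control for Lif and were not called.

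Il6 (chr5:30013114-30019981, plus strand, ENSMUSG00000025746.11) encodes interleukin-6, whose promoter window shown above carries 3 motif matches. Each control library had 4 counts, equal to 0.220, 0.170 and 0.214 CPM. LPS libraries had 726, 767 and 921 counts, or 39.5, 37.5 and 43.1 CPM, the widest separation of any member with counts in control. In (GT)6 SWCNT there were 21, 17 and 11 counts, or 0.862, 0.731 and 0.644 CPM, which lay above all control libraries and below 1 CPM. The log2 fold change was 1.90 ± 0.39 with (GT)6 SWCNT (n = 3 per group, adjusted p = 0.000347), against 7.62 ± 0.19 with LPS.

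COOH SWCNT libraries had 8, 7 and 15 Il6 counts (0.303, 0.351 and 0.608 CPM), again above all control libraries. That log2 fold change of 1.07 ± 0.44 had a 95% interval of 0.17 to 1.97 and was not called (n = 3 per group, adjusted p = 0.0854). AAV libraries had 11, 10 and 6 counts (0.397, 0.343 and 0.229 CPM) and did not overlap control either, with a log2 fold change of 0.69 ± 0.45 that was not called (adjusted p = 0.413). Over all genes tested 5.00% were called in AAV. Il6 stayed between 2 and 9 counts in Fura-2, DiBASC2 and Di-2-ANEPEQ, overlapping control.

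The rise over control, taken as the difference of mean CPM relative to the LPS rise, separated these 3 gp130 cytokines. (GT)6 SWCNT gave 85.5% of the LPS rise for Osm, 10.02% for Lif and 1.37% for Il6. COOH SWCNT gave 50.8% for Osm, 8.88% for Lif and 0.552% for Il6, the same order. The percentages are descriptions with no test of their own, since both sides share the control libraries. They also depend on the LPS rise, with log2 fold changes of 1.50 for Osm, 4.37 for Lif and 7.62 for Il6. The log2 fold changes with (GT)6 SWCNT ran in the opposite order, at 1.35 for Osm, 1.57 for Lif and 1.90 for Il6. With COOH SWCNT they were 0.94, 1.46 and 1.07, and that of Il6 was not called.

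**Figure D2:**
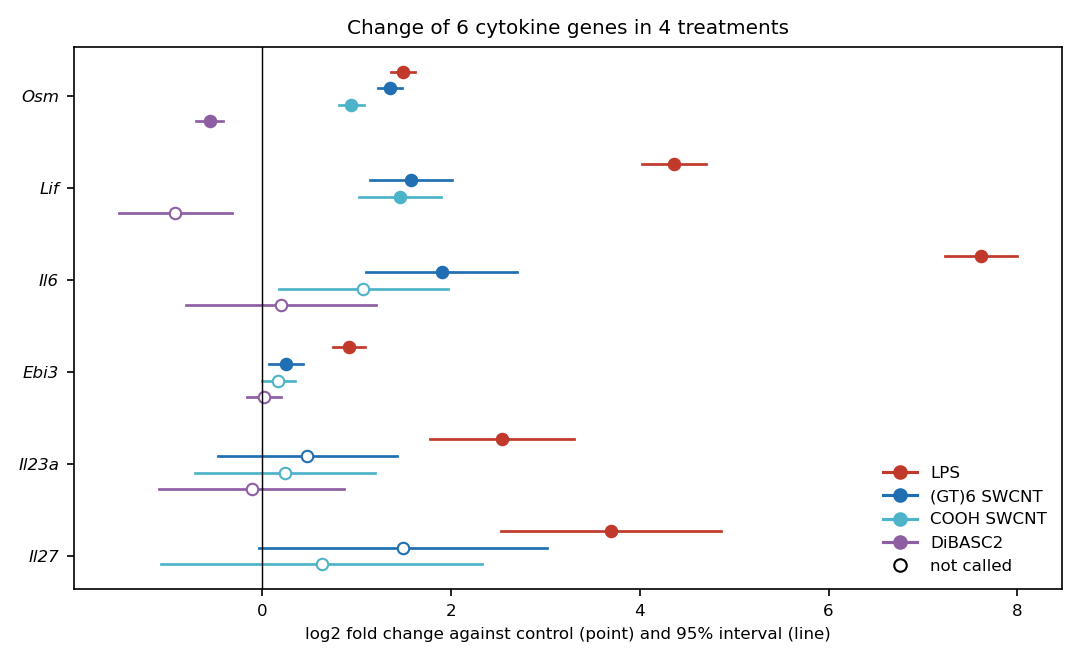
Log2 fold change of 6 members against control with its 95% interval, from edgeR's quasi-likelihood fit, in 4 treatments; filled symbols mark calls at an adjusted p under 0.05, open symbols no call, and values at the count floor (Il10, Il12b, and Il27 in DiBASC2) are not drawn. Osm sits at 1.50 with LPS and 1.35 with (GT)6 SWCNT, whereas Il6 sits at 7.62 and 1.90, and Osm in DiBASC2 is the only call below 0.

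Among the IL-12 family chains, Ebi3 (chr17:55952640-55957022, plus strand, ENSMUSG00000003206.7), the beta chain of IL-27 and IL-35, was present in every group. Control libraries had 15.3, 15.3 and 14.2 CPM and LPS libraries 25.5, 31.6 and 27.6, a log2 fold change of 0.92 ± 0.08 (n = 3 per group, adjusted p = 2.15e-11). With (GT)6 SWCNT it stood at 18.4, 17.7 and 17.2 CPM, and with COOH SWCNT at 18.1, 15.7 and 16.5. Both groups lay above all control libraries by a small margin. The log2 fold change was 0.25 ± 0.09 with (GT)6 SWCNT (adjusted p = 0.0379) and 0.17 ± 0.09 with COOH SWCNT (not called, adjusted p = 0.184). The (GT)6 SWCNT call did not hold with upper-quartile scaling (adjusted p = 0.0504), without the third control library (adjusted p = 0.116), or without the first or second (GT)6 SWCNT library (adjusted p = 0.130 and 0.0729). Ebi3 was 13.9 to 17.5 CPM in AAV and in the 3 dye groups, overlapping control in each. Its exons overlap the antisense gene Gm16712, which had 0 to 13 counts in any library, and because strand use in the counting is not stated the reads of such partners cannot be told apart.

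Il27 (chr7:126589010-126594941, minus strand, ENSMUSG00000044701.5), the p28 chain that pairs with EBI3, had 1, 1 and 5 counts in control and 23, 33 and 39 in LPS, or 1.25, 1.61 and 1.82 CPM. The log2 fold change with LPS was 3.70 ± 0.57 (n = 3 per group, adjusted p = 2.42e-06). In (GT)6 SWCNT there were 6, 14 and 2 counts, overlapping control, and the log2 fold change of 1.50 ± 0.75 was not called (adjusted p = 0.174). COOH SWCNT had 5, 2 and 6 counts, and no group outside LPS and (GT)6 SWCNT had a library above 9. Il27 shares exon positions with Apobr on the other strand, a gene at 85.3 to 95.7 CPM in every group whose log2 fold change with LPS was 0.07 (not called, adjusted p = 0.335). The Il27 counts are uncertain to that extent.

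Il23a (chr10:128296139-128298752, minus strand, ENSMUSG00000025383.2) encodes p19, the chain particular to IL-23. Control libraries had 6, 20 and 6 counts, or 0.330, 0.851 and 0.320 CPM, and LPS libraries 52, 63 and 70, or 2.83, 3.08 and 3.27 CPM. The log2 fold change was 2.54 ± 0.38 (n = 3 per group, adjusted p = 1.09e-06). The (GT)6 SWCNT libraries were spread from 6 to 27 counts, with the third library alone above the control range. Their log2 fold change of 0.48 was not called (adjusted p = 0.542) and became -0.37 without that library. COOH SWCNT had 11 to 19 counts, within the control range, and the dye and AAV groups had 6 to 17.

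Il12b (chr11:44400063-44414033, plus strand, ENSMUSG00000004296.14), the p40 chain shared by IL-12 and IL-23, was close to an on or off readout. All 3 control libraries had 0 counts. LPS libraries had 8, 29 and 32, or 0.435, 1.42 and 1.50 CPM, with the first library well below the others. Against a floor of 3 counts in the smallest control library, Il12b was at least 6.77-fold higher with LPS (n = 3 per group, adjusted p = 1.64e-06). It had 0 counts in every COOH SWCNT, DiBASC2 and AAV library, and at most 2 in any library of (GT)6 SWCNT, Fura-2 and Di-2-ANEPEQ, so no fold against control is given for those groups.

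Il12a (chr3:68690644-68698547, plus strand, ENSMUSG00000027776.12), the p35 chain of IL-12 and IL-35, had 0 counts in each of the 24 libraries, LPS included. A count of 0 allows up to 0.102 to 0.176 CPM depending on the library, for counting error only. Thus the p40 and p19 chains of IL-23 and both chains of IL-27 were detected in LPS, whereas of the IL-12 pair p40 was detected and p35 was not detectable at this depth.

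Il10 (chr1:131019845-131024974, plus strand, ENSMUSG00000016529.5), the anti-inflammatory member of the list, had 2, 2 and 1 counts in control and 15, 15 and 12 in LPS, or 0.815, 0.732 and 0.561 CPM. The ratio of summed counts, scaled by library size, was 8.42-fold higher with LPS, with an exact binomial 95% interval of 3.34 to 27.3 that covers counting error only (edgeR adjusted p = 0.000258, n = 3 per group). The other groups had 0 to 4 counts in each library. COOH SWCNT had 1, 4 and 1 counts, a ratio of 1.02 with an interval of 0.260 to 4.23.

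The direct comparisons placed the nanotubes below LPS for most members. In (GT)6 SWCNT against LPS, 7 members were lower, where 21.6% of all genes tested were called and 11.9% were called lower (1263 higher and 1566 lower, or 1695 and 1251 with upper-quartile scaling). The exception was Osm, with a log2 difference of -0.14 ± 0.06, a 95% interval of -0.26 to -0.03 and no call (n = 3 per group, adjusted p = 0.0621), although its 3 libraries lay below all LPS libraries. Without the third (GT)6 SWCNT library, its highest at 72.4 CPM, the difference was -0.19 and was called (adjusted p = 0.0239). The distance from LPS was -0.67 for Ebi3, -2.06 for Il23a, -2.20 for Il27, -2.79 for Lif and -5.71 for Il6. For Il10 and Il12b the summed counts were lower in (GT)6 SWCNT by ratios of 22.5 (interval 5.86 to 192) and 37.0 (interval 9.87 to 312). The filter kept Il10, Il12b and Il27 largely through LPS, so their place among the 7 was favoured in advance.

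In COOH SWCNT against LPS, all 8 members tested were lower, where 37.8% of all genes were called and 19.7% were called lower (2374 higher and 2580 lower, or 3307 and 1980 with upper-quartile scaling). The log2 difference was -0.55 ± 0.06 for Osm (n = 3 per group, adjusted p = 4.99e-10), -0.75 for Ebi3, -2.29 for Il23a, -2.91 for Lif, -2.96 for Il10, -3.07 for Il27 and -6.55 for Il6. Il12b, at 0 in all COOH SWCNT libraries, was at least 7.42-fold lower than in LPS. Here too Il10, Il12b and Il27 were tested largely because of their LPS counts.

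Between the nanotubes, which differ in carrying DNA or carboxyl groups, Osm was the only member called. It was higher in (GT)6 SWCNT by a log2 difference of 0.41 ± 0.06 (n = 3 per group, adjusted p = 1.82e-06), in a comparison where 21.4% of all genes were called and 11.9% were called higher (1557 higher and 1244 lower, or 1283 and 1604 with upper-quartile scaling). Lif differed by 0.11 with a 95% interval of -0.23 to 0.46 and was not called (adjusted p = 0.693). Il6 libraries did not overlap, and the log2 difference of 0.83 ± 0.32, with an interval of 0.19 to 1.47, was not called (adjusted p = 0.0561). Without the third COOH SWCNT library, which had 15 Il6 counts, it was 1.21 and was called (adjusted p = 0.0174). Ebi3 differed by 0.08, interval -0.09 to 0.26, with overlapping libraries.

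Fura-2, Di-2-ANEPEQ and AAV gave 0 calls among the 8 members tested by edgeR's quasi-likelihood test, and 0 members had an unadjusted p under 0.05 in any of them. DESeq2's Wald test gave an adjusted p for 2 members in Fura-2, 4 in Di-2-ANEPEQ and 4 in AAV, and called 0. Over all genes 0.252%, 3.08% and 5.00% were called in these comparisons. The 95% intervals for Il6 were -1.32 to 0.88 in Fura-2, -0.80 to 1.22 in Di-2-ANEPEQ and -0.23 to 1.62 in AAV. Each includes changes of more than 2-fold. The intervals for Ebi3 were -0.12 to 0.24 in Fura-2, -0.19 to 0.17 in Di-2-ANEPEQ and -0.10 to 0.26 in AAV.

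Scaled by exon length, the 9 cytokines together amounted to 25.4 ± 0.852 CPM per kb in control, 83.2 ± 2.86 with LPS, 46.96 ± 1.44 with (GT)6 SWCNT, 38.4 ± 1.71 with COOH SWCNT and 21.6 ± 1.36 with DiBASC2 (SD, n = 3). In control, Osm made up 46.03% and Ebi3 51.0% of that sum. In LPS, Osm made up 39.5%, Ebi3 29.4%, Il6 19.8% and Lif 6.54%. With (GT)6 SWCNT the sum was 63.4% Osm and 32.8% Ebi3, and with COOH SWCNT it was 58.4% and 37.8%. Il6 contributed 0.656% of the (GT)6 SWCNT sum and 0.457% of the COOH SWCNT sum.

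**Figure D3:**
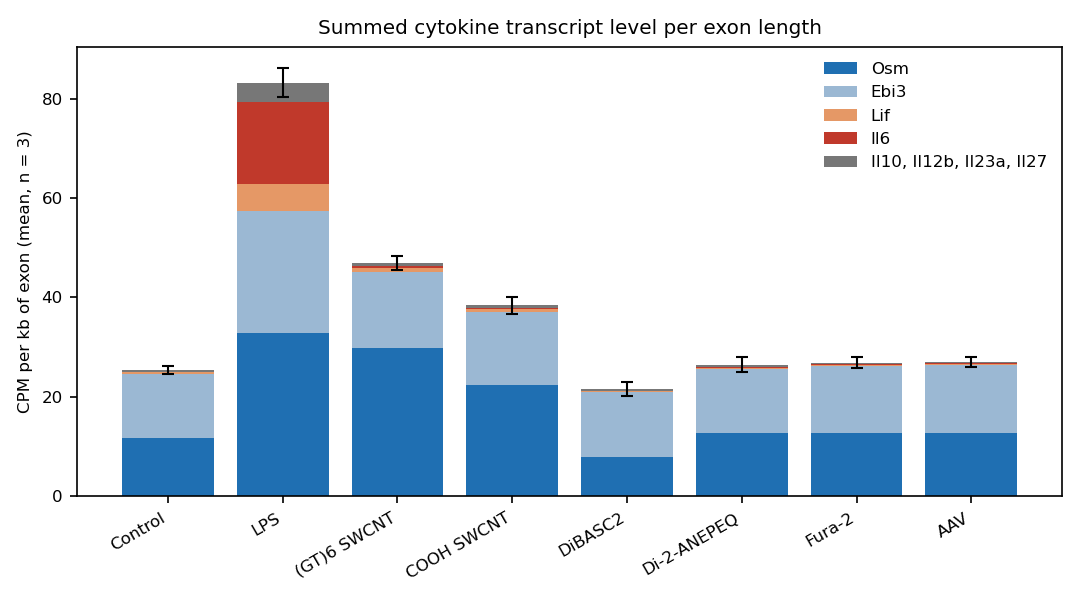
Summed level of the 9 cytokine transcripts per group in CPM per kb of exon, stacked by gene; bars are means of 3 libraries and start at 0, with the SD of the sum as error bars; Il12a is 0 in all. LPS reaches 83.2, with 19.8% from Il6, whereas the (GT)6 SWCNT bar of 46.96 is almost entirely Osm and Ebi3.

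Ratios within a library show the same difference. The Il6 to Osm ratio per kb was 0.501 ± 0.0319 with LPS (SD, n = 3), 0.0104 ± 0.00209 with (GT)6 SWCNT, 0.00784 ± 0.00346 with COOH SWCNT and 0.00707 ± 0.000511 in control. The (GT)6 SWCNT range of this ratio, 0.00833 to 0.0125, lay above the control range of 0.00650 to 0.00747. COOH SWCNT spanned the control range, from 0.00540 to 0.0118. The Lif to Osm ratio was 0.166 ± 0.0126 with LPS, 0.0265 ± 0.00212 with (GT)6 SWCNT, 0.0324 ± 0.00261 with COOH SWCNT and 0.0229 ± 0.00646 in control. Its (GT)6 SWCNT range of 0.0251 to 0.0289 lay within the control range of 0.0181 to 0.0302, which COOH SWCNT (0.0294 to 0.0342) overlapped. Ebi3 exceeded its partner Il27 by a ratio of 16.3 ± 2.53 in LPS, the group where Il27 was highest. In LPS the Il23a to Il12b ratio was 3.17 ± 2.18, with the first library at 5.69.

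By root-mean-square difference in log2 fold change over the 7 treatments against control, the genes nearest to each member among all those tested were as follows, as a description with shared control libraries. Osm was closest to Zswim4 (0.13), Dusp5 (0.14), which encodes an ERK phosphatase, and Plk2 (0.14). Lif was closest to Id3 (0.26), Il1a (0.34) and Ccrl2 (0.35). Ebi3 was closest to Sqstm1 (0.05), Zfp770 (0.05) and Cybb (0.06), and Il27 to Acod1 (0.26), Traf1 (0.28) and Nlrp3 (0.29). Il23a was closest to the antisense gene Gm20655 (0.28), Slc7a11 (0.31) and Cd40 (0.32). For Il6 the nearest were Ccl20 (0.43), which averaged 0.119 CPM, Il1b (0.91) and Ccl17 (0.95), and of these Ccl20 alone lay within 0.5 of it. Il10 had Bcl2a1b (0.89), Il1f9 (0.93) and Bcl2a1a (0.94), and Il12b had Csf3 (1.39), Ccl20 (1.44) and Sele (1.46). At the floor these distances depend on the fitted values.

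Other ligands of these families were near absent: of 10 listed, 0 passed the filter, Ctf1, Il22 and Il31 had 0 counts, and the highest sums over 24 libraries were 108 for Cntf and 51 for Il11. The receptor chains differed in level. Il6st (gp130) stood at 116, 127 and 115 CPM in control and was not called in LPS or either nanotube group. Lifr had 35 counts and Osmr 1 count over all 24 libraries, Il27ra had 26, and Il23r had 0, so these chains, which bind LIF, oncostatin M, IL-27 and IL-23, were at or near the floor in these cells.

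Of 12 receptor genes 6 were tested. Over all genes tested, 28.3% were called with LPS, 20.4% with (GT)6 SWCNT and 20.0% with COOH SWCNT. LPS raised Il10ra and Il10rb and lowered Il6ra, (GT)6 SWCNT lowered Il6ra, and COOH SWCNT lowered Il6ra and raised Il12rb2. Without the third control library or the first (GT)6 SWCNT library, Il12rb2 was also called higher in (GT)6 SWCNT (log2 fold change 0.30 and 0.31, adjusted p = 0.0288 and 0.0185, against 0.18 and no call with all libraries). Il10ra, the ligand-binding IL-10 receptor chain, went from 13.2, 11.7 and 12.9 CPM in control to 40.7, 42.4 and 45.7 in LPS, a log2 fold change of 1.78 ± 0.08 (n = 3 per group, adjusted p = 3.85e-20). Il6ra, the IL-6 receptor, went from 71.8, 72.3 and 69.7 CPM to 45.3, 40.2 and 39.6 in LPS and 56.3, 54.0 and 58.4 in (GT)6 SWCNT. Its log2 fold change was -0.78 ± 0.06 with LPS, -0.35 ± 0.06 with (GT)6 SWCNT and -0.20 ± 0.06 with COOH SWCNT (adjusted p = 0.00761). The last call was lost without the third COOH SWCNT library (-0.14, adjusted p = 0.106). Il12rb2 rose by a log2 fold change of 0.30 with COOH SWCNT (adjusted p = 0.0148) and lost its call without the first or second control library or the first COOH SWCNT library (adjusted p = 0.0596, 0.114 and 0.0983).

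Of 8 JAK-STAT genes 7 were tested. Among all genes tested, 13.8% were called higher with LPS, 9.90% with (GT)6 SWCNT and 9.39% with COOH SWCNT. LPS raised 5, while each nanotube raised Stat3 and called no other. In (GT)6 SWCNT the count was 2, with Jak1 added, without the second library of that group, by DESeq2's Wald test and with only the 2 groups fitted (log2 fold change 0.10 to 0.13, against 0.09 and no call with all groups). Socs3, the feedback inhibitor of gp130 signalling, was at 6.54, 5.62 and 7.21 CPM in control and 123, 135 and 140 in LPS, a log2 fold change of 4.37 ± 0.08 (n = 3 per group, adjusted p = 3.74e-32). It was 6.16, 5.93 and 6.09 CPM in (GT)6 SWCNT, within the control range (log2 fold change -0.08, not called). Stat3 had log2 fold changes of 0.21 with LPS, 0.33 ± 0.05 with (GT)6 SWCNT (adjusted p = 1.32e-06) and 0.14 ± 0.05 with COOH SWCNT (adjusted p = 0.0381). The COOH SWCNT call was lost without control library 1 or 3 or the first or second COOH SWCNT library (adjusted p = 0.0801 to 0.115).

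Of 16 transcription factors that act on these cytokine genes, 15 were tested. LPS raised 10 and lowered 2, each nanotube raised 11 and lowered 1, DiBASC2 raised 1 and lowered 5, Di-2-ANEPEQ lowered 2, and Fura-2 and AAV called 0. The shares called over all genes tested were 28.3% with LPS, 20.4% with (GT)6 SWCNT, 20.0% with COOH SWCNT and 5.47% with DiBASC2. Di-2-ANEPEQ called 3.08% of all genes (90 higher and 314 lower), Fura-2 0.252% and AAV 5.00%. Nfkbiz, the nuclear IkB-zeta needed for Il6 and Il12b induction, was 14.5, 17.0 and 16.2 CPM in control and 842, 838 and 853 in LPS, a log2 fold change of 5.72 ± 0.05 (n = 3 per group, adjusted p = 3.95e-42). Libraries of (GT)6 SWCNT had 22.9, 25.9 and 23.9 CPM and those of COOH SWCNT 22.4, 22.6 and 23.5, all above control and far below LPS. In DiBASC2 Nfkbiz was lower than control, at 13.0, 11.9 and 12.5 CPM (log2 fold change -0.36 ± 0.07, adjusted p = 0.000701). It was also lower in Di-2-ANEPEQ, at 12.5, 13.3 and 14.9 CPM (log2 fold change -0.24 ± 0.07, adjusted p = 0.0391). The library at 14.9 CPM lay within the control range, and the call was not checked under the alternative fits. Atf3, a stress-induced factor, rose by a log2 fold change of 1.37 ± 0.04 with (GT)6 SWCNT and 0.76 ± 0.05 with COOH SWCNT. Maf, an activator of Il10, fell by 0.59 on the log2 scale with LPS and by 0.78 with (GT)6 SWCNT, and rose by 0.44 with DiBASC2. Its fall of 0.30 with COOH SWCNT (adjusted p = 0.0263) lost the call without any 1 control library or the third COOH SWCNT library (adjusted p = 0.0587 to 0.148).

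All 9 regulators of cytokine mRNA stability were tested. Shares called over all genes tested were 28.3% with LPS, 20.4% with (GT)6 SWCNT, 20.0% with COOH SWCNT, 5.47% with DiBASC2 and 5.00% with AAV. LPS raised 6 and lowered 1, (GT)6 SWCNT raised 5 and lowered 1, COOH SWCNT raised 6 and lowered 1, DiBASC2 raised 1 and lowered 1, and AAV raised 1. Zc3h12a (regnase-1), which degrades Il6 mRNA, went from 5.17, 5.45 and 5.66 CPM in control to 88.5, 89.2 and 98.6 in LPS, a log2 fold change of 4.08 ± 0.08 (n = 3 per group, adjusted p = 6.01e-31). Zfp36 (tristetraprolin), which destabilises AU-rich mRNAs, was 54.5, 60.7 and 55.6 CPM in control, 145, 157 and 151 with (GT)6 SWCNT and 119, 136 and 110 with COOH SWCNT. It was lower in DiBASC2, at 47.8, 43.01 and 40.5 CPM (log2 fold change -0.38 ± 0.07, adjusted p = 0.000197). The relative Zfp36l2 fell by 0.85 on the log2 scale with LPS and 0.54 with (GT)6 SWCNT. Its fall of 0.15 with COOH SWCNT (adjusted p = 0.0367) and the rise of Zfp36l1 by 0.24 with DiBASC2 each lost the call in several fits that left out 1 library. The COOH SWCNT count of 7 fell to 4 without the first control or first COOH SWCNT library and to 3 without the second COOH SWCNT library. Cntf, Ctf1, Il31, Il27ra, Il6ra, Il10rb, Il12rb2, Jak1, Stat3, Maf, Zfp36, Zfp36l1 and Zfp36l2 share exon positions with another gene, so their counts are uncertain. For Cntf (Zfp91) and Il10rb (Gm21970) the other gene is on the same strand.

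**Figure D4:**
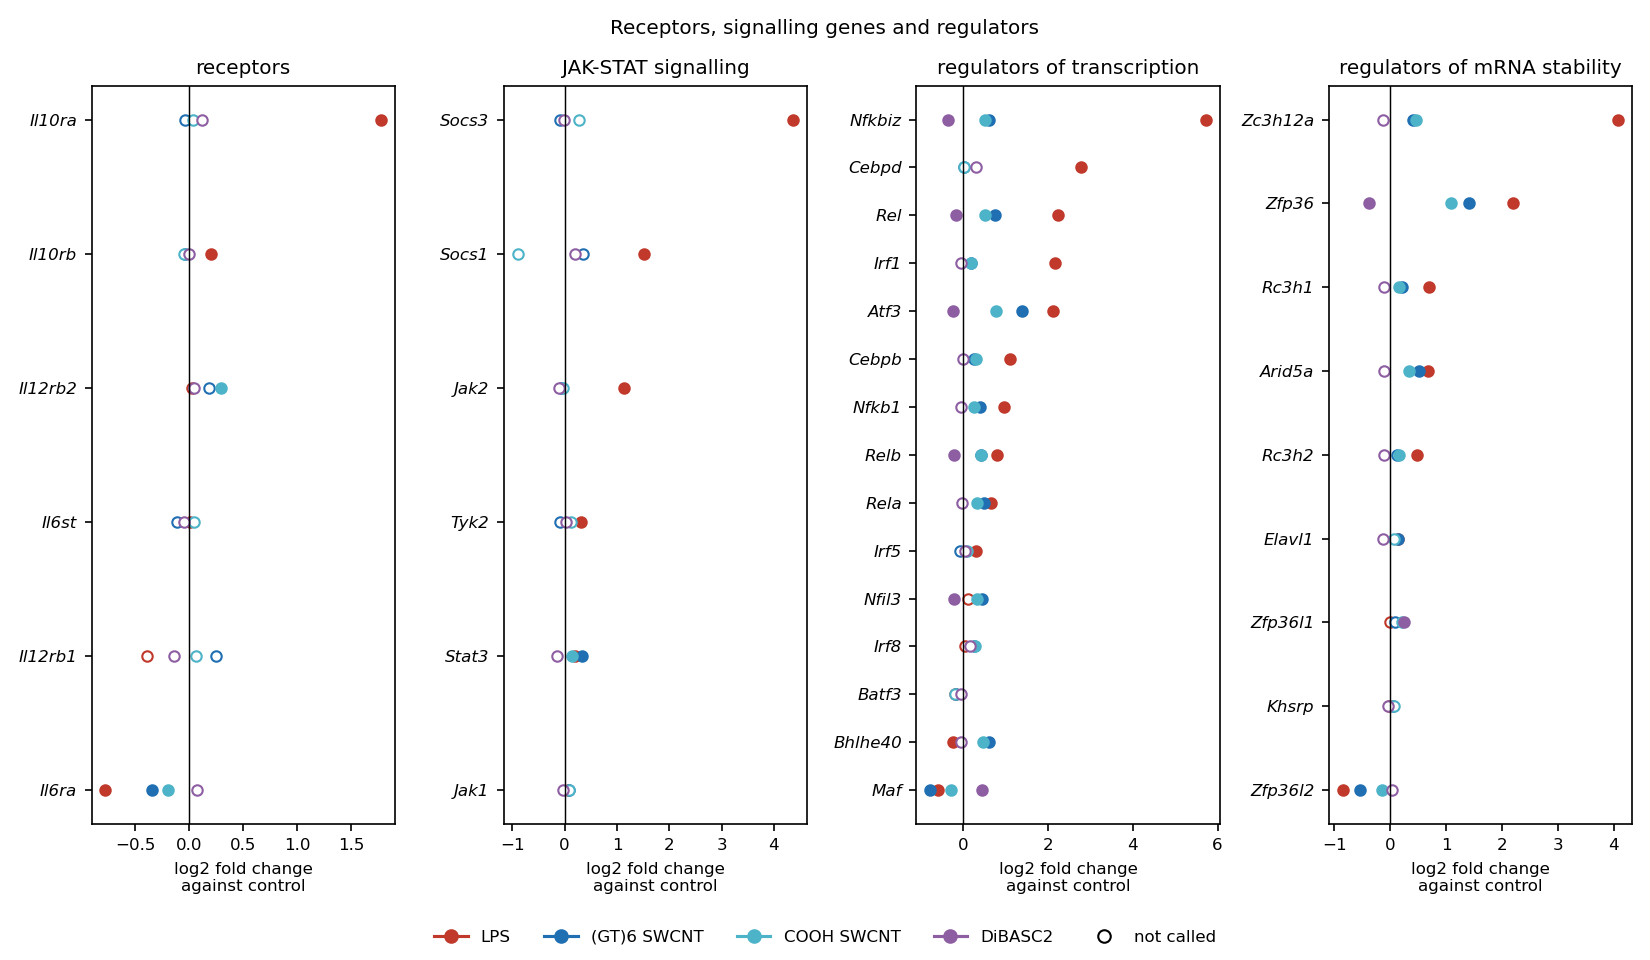
Log2 fold change against control with LPS, (GT)6 SWCNT, COOH SWCNT and DiBASC2 for receptors, JAK-STAT genes and regulators of cytokine transcription and mRNA stability; filled symbols are calls at an adjusted p under 0.05. Nfkbiz, Socs3 and Zc3h12a lie at 5.72, 4.37 and 4.08 with LPS, and Socs3 lies at -0.08 with (GT)6 SWCNT.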

How the data were processed

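Poly-A RNA of 24 SIM-A9 libraries was measured, 3 in each of 8 groups taken from the sample titles. The authors deposited raw counts of reads per gene, whole numbers for 54838 versioned Ensembl identifiers, with all columns matched to a sample by title. Per the submitters' processing notes STAR 2.5.4b and build GRCm38.p6 were used. The counter, annotation release and strand setting are not given in the sources used here, which makes counts of overlapping and antisense genes uncertain. Symbols, positions and exon lengths came from GENCODE M21 (GRCm38), in which 54723 identifiers matched without version and 115 did not. Promoter windows came from RefSeq on GRCm38.p6.

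In R 4.3.3, edgeR 4.0.16 kept 13116 genes by filterByExpr and fitted one quasi-likelihood model with TMM factors to the 24 libraries (16 residual degrees of freedom). A total of 10 contrasts were tested, two-sided, each adjusted by Benjamini-Hochberg over all genes tested. A gene was called at an adjusted p under 0.05. Standard errors are the log2 fold change divided by the square root of F, and intervals are 95%. Where all 3 libraries of a group were at 0, a bound against 3 counts in its smallest library is given. Where no library exceeded 3 counts, the ratio of summed counts is given with an exact binomial interval, and with both groups at that floor no fold is given. The scripts were tested on simulated data.

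The 9 members and the other gene lists were chosen with earlier results of these data known. All members are named. The values of 1 gene of the other lists and of 1 marker list are not reported here. From every other list, the called genes with the highest and lowest log2 fold change in LPS, both SWCNT groups and DiBASC2 were named, and for each member tested its 3 nearest genes. Receptors and ligands at or near 0 counts, Il6st, and Il10rb, Jak1, Il12rb2, Atf3, Nfkbiz and Zfp36 in some comparisons were named after their values were seen. Other size factors, filters, a replicate block, fits of 2 groups, DESeq2 1.42.0 and leaving out each library were tried. The biological coefficient of variation was 4.12%, and replicate pairs differed by more than sampling noise (chi-square per degree of freedom 2.46 to 19.4). The index numbers of the 3 libraries of each group are consecutive, so library order and group cannot be told apart.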

Additional observations from a re-analysis of the deposited data

How the results depend on the processing

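Of the members' fold changes under the alternatives, 757 kept their direction and side of the threshold, 6 gained a call, 5 lost one (all Ebi3 in (GT)6 SWCNT) and 23 changed sign, each of the last an uncalled value when 1 library was left out; the cause was not tested. Requiring a mean of at least 50 counts left only Il6, Lif, Osm and Ebi3 to test. The members called fell to 4 in LPS, 4 in COOH SWCNT against LPS and 3 in (GT)6 SWCNT against LPS. Between the nanotubes the count rose to 2, where Il6 was called (edgeR adjusted p = 0.0479). Il6 passed that filter through its LPS libraries (726 to 921 counts), with 7 to 21 counts in the nanotube libraries. The adjustment then ran over 10342 genes instead of 13116. In DiBASC2, DESeq2's Wald test called 2 members, adding Lif (adjusted p = 0.0381). With 1 library left out, the members called ranged from 1 to 2 in DiBASC2 (2 without the second control library or the third DiBASC2 library) and from 1 to 2 between the nanotubes.

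The uncalled log2 fold changes against control that changed sign when 1 library was left out ranged, for Ebi3, from -0.0564 to 0.0218 in Di-2-ANEPEQ and from -0.0589 to 0.0733 in DiBASC2. For Il23a they ranged from -0.72 to 0.37 in AAV, -0.37 to 0.57 in DiBASC2, -0.91 to 0.00361 in Fura-2 and -0.37 to 1.17 in (GT)6 SWCNT, and from -0.62 to 0.71 between the nanotubes. For Il27 they ranged from -2.34 to 1.24 in AAV, -0.33 to 1.33 in Di-2-ANEPEQ and -0.0585 to 1.59 in Fura-2. Il6 ranged from -0.10 to 0.55 and Lif from -0.20 to 0.26 in Di-2-ANEPEQ, and Lif from -0.36 to 0.10 in Fura-2.

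Same-numbered libraries did not deviate together over all pairs, so no pairing by replicate number was seen. That does not exclude shared cultures, on which the labels are silent. With a replicate block the adjusted p of Ebi3 in (GT)6 SWCNT was 0.0555 and that of Stat3 in COOH SWCNT 0.0506, both no longer called, and the count of members called in (GT)6 SWCNT was 3. Alternatives for the genes of the other lists were added after seeing the data.

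Over all genes, edgeR's counts of calls moved by more than 1.5 times in 4 comparisons. Fura-2 had 33, against 0 to 106 with 1 library left out (915 to 1730 genes at an unadjusted p under 0.05), 83 by DESeq2's Wald test, 188 with no filter and 80 with only the 2 groups fitted. Di-2-ANEPEQ had 404, against 120 to 418 with 1 library left out and 814 with only the 2 groups. AAV had 656, against 157 to 769, and DiBASC2 717, against 333 to 574, with 1 library left out. In AAV the 241 higher and 415 lower became 179 and 502 with upper-quartile scaling, and 384 and 412 by DESeq2's Wald test; in Fura-2 the 5 higher and 28 lower became 26 and 57 by DESeq2's Wald test.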
